A study of Mus musculus with 8 samples.

Results

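The clustered protocadherins are cell-surface adhesion proteins encoded by 3 neighbouring gene clusters on mouse chromosome 18, and their transcript counts were compared between cells that gained or lost the transcription factor TCF-1. The members were all genes with a mouse symbol of Pcdha, Pcdhac, Pcdhb, Pcdhga, Pcdhgb or Pcdhgc followed by a number. There were 58 of them among the 53465 genes of the 3T3 count tables, with 14 in the alpha cluster, 22 in the beta cluster and 22 in the gamma cluster. The Scid.adh tables held 57 of them among 31053 genes, and Pcdhgb8 was analysed in 3T3 only. In GRCm38 coordinates the alpha members lie between bases 36930184 and 37187661 of chromosome 18, the beta members between 37264938 and 37524479, and the gamma members between 37661793 and 37841873, all on the plus strand.

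In the alpha and gamma clusters each member has its own promoter and a large variable exon, which encodes the extracellular cadherin repeats and the transmembrane segment. That exon is spliced to constant exons at the end of the cluster, so all members of a cluster share the last part of the transcript and a common cytoplasmic tail. Beta members stand each in an exon of their own and lack that shared tail. In neurons each cell transcribes its own combination of members through choice of promoters, a choice in which CTCF, cohesin and DNA methylation take part, and the proteins give cells a surface identity that acts in self-avoidance of neurites. The so-called C-type members (Pcdhac1, Pcdhac2, Pcdhgc3, Pcdhgc4 and Pcdhgc5) are regulated apart from the others, and Pcdhgc3 is also known from cells outside the nervous system.

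The study asked how TCF-1, the HMG-box factor that Tcf7 encodes and early T cell development needs, reshapes genome folding. Its RNA-seq libraries analysed here fell into 4 groups of 2. NIH-3T3, a mouse embryonic fibroblast line, was profiled with TCF1 induced (genotype given as Tcf7 induced) and as normal wild-type, untreated cells. Scid.adh, a line from a mouse thymic lymphoma that serves as a model of the DN3 thymocyte stage, was profiled as TCF-1 KO (genotype Tcf7-/-) and as wild type with an empty vector. The file headers name doxycycline for both induced 3T3 libraries and for neither normal one, and Cas9 for all 4. An effect of the drug and an effect of TCF-1 in 3T3 therefore cannot be told apart. No source tells separate cultures from repeated libraries of 1 culture, so the p-values speak of variation between libraries that may be purely technical. No source says whether the knockout is 1 clone.

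Total counts per library were 16857868 and 13850213 in induced and 16174002 and 17523677 in normal 3T3 cells, and 7740198 and 8217933 in knockout and 10392402 and 9847239 in empty-vector Scid.adh cells. Tcf7 itself stood at 946 and 972 CPM (counts scaled to a common library total after TMM normalization) in induced 3T3 cells against 14.5 and 14.6 CPM in normal ones, and at 646 and 624 CPM in knockout Scid.adh cells against 1318 and 1325 CPM with the empty vector. The Tcf7 level followed the library labels in both lines. Which part of Tcf7 was deleted is not given in the sources used here, so reads left in the knockout libraries do not speak to the protein. Of the fibroblast markers all 8 passed the filter on low counts in 3T3, and of the DN3 thymocyte markers 8 of 9 did in Scid.adh. In induced 3T3 cells edgeR called 3 of these fibroblast markers higher and 4 lower, at an adjusted p under 0.05. Of all tested genes there 18.5% were called higher and 18.3% lower. In knockout Scid.adh cells 1 of the 8 DN3 markers was called higher and 6 lower, beside 15.6% and 15.9% of all tested genes. Neuron markers, the class in which clustered protocadherins are best known, summed to 27.3 and 27.2 CPM in induced and 63.9 and 64.3 CPM in normal 3T3 cells, of which Map2 made up most. In Scid.adh they summed to 4.86 and 4.75 CPM in knockout and 3.02 and 1.39 CPM in empty-vector cells. In bulk libraries fewer expressing cells and less RNA per cell cannot be told apart.

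The clusters differed in abundance between the lines by a wide margin. Rows of members took 1.03% and 1.01% of all counts in induced and 0.777% and 0.782% in normal 3T3 cells. In Scid.adh they held 207 and 273 counts in the knockout libraries and 134 and 123 counts with the empty vector. The beta genes, whose rows are comparable in kind between the lines, summed to 235 and 247 CPM in induced and 211 and 222 CPM in normal 3T3 cells, and to 18.5 and 27.7 CPM in knockout and 11.3 and 10.1 CPM in empty-vector Scid.adh cells, with the lines counted and normalized separately.

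The 3T3 and the Scid.adh rows of the alpha and gamma clusters hold different things. By the annotation all 14 alpha members share 2860 exon bases and all 22 gamma members share 2116. In 3T3 the lowest of the 22 gamma rows held 7060 and 5708 counts in induced and 5053 and 5516 counts in normal cells, and 15 to 17 rows per library lay within 1% of that lowest row. The lowest alpha row held 191 and 140 counts in induced and 192 and 204 counts in normal cells. A read of the shared exons thus stood in the row of every member of its cluster, and the row sums counted a gamma read 8.99 to 9.31 times on average and an alpha read 8.09 to 8.47 times. In Scid.adh the lowest alpha and gamma rows were at 0 in all 4 libraries, and 2.20% to 2.44% of the reads were set aside as ambiguous, so the rows there held the reads of a member's own exons only.

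**Figure D1:**
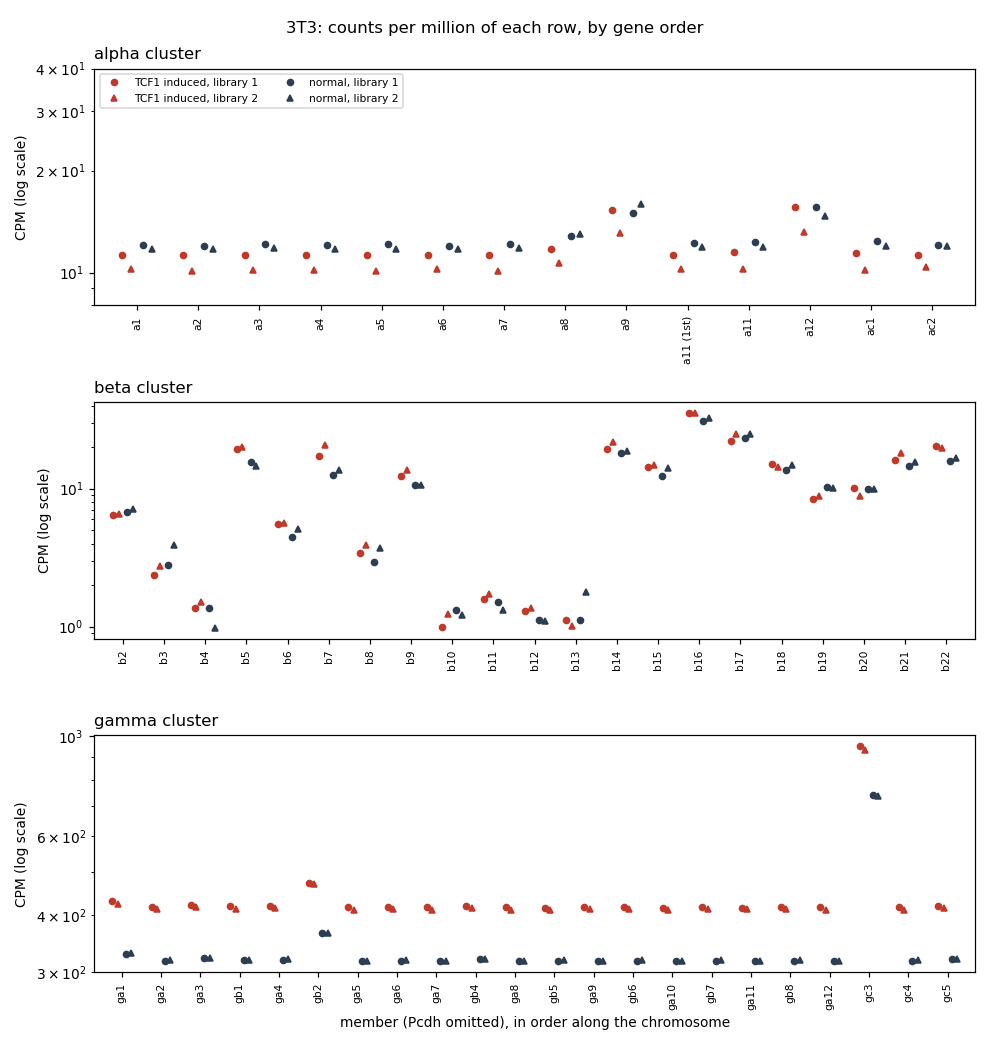
CPM of each row in the 4 3T3 libraries (vertical axis, log scale), by gene order along the chromosome, for the alpha, beta and gamma clusters, with Pcdhb1 left out. Red points are the induced and dark points the normal libraries. The gamma rows form 2 flat levels, at 411 CPM or more in induced and 316 to 330.3 CPM in normal cells apart from Pcdhgb2 and Pcdhgc3, while beta rows differ from gene to gene.

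Gamma cluster transcripts were higher in induced 3T3 cells. Taken as deposited, all 22 gamma rows passed the filter and were called higher by edgeR's quasi-likelihood test at an adjusted p under 0.05. Their log2 fold changes were 0.35 to 0.39 with SEs of 0.031 to 0.034, and the highest adjusted p in edgeR was 1.23e-12. Over the 3 clusters 57 of 58 members were tested and 25 were called higher, where 18.5% of all tested genes were called higher. None of the members was called lower by edgeR, where 18.3% of all tested genes were; 0 had an unadjusted p under 0.05 in that direction and DESeq2 called 0. Because the gamma rows repeat the same shared reads, these 22 calls are largely 1 measurement.

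Reads of the shared gamma exons and reads of each member's own exons were therefore also fitted apart, which was decided once the rows had been looked at. The shared reads of a cluster were taken as its lowest row in a library and counted once, and the excess of each row over it was taken as that member's own reads. The shared gamma exons stood at 419 and 415 CPM in induced cells, against 319 and 319 CPM in normal cells. The 2 groups lay far apart relative to their spread, at 416.9 ± 3.1 and 319.0 ± 0.52 CPM (SD, n = 2 each), a log2 fold change of 0.39 (SE 0.035, edgeR adjusted p = 1.07e-13). Divided by length, the shared exons carried 198 and 196 CPM per kilobase in induced and 151 and 151 CPM per kilobase in normal cells. The own reads of all gamma members together came to 1.00 and 0.990 times that density in induced and 1.05 and 1.03 times in normal cells.

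Pcdhgc3, a C-type member, supplied most of the cluster's own reads. Its own reads were 9083 and 7238 in induced cells and 6792 and 7300 in normal cells, or 539 and 526 CPM against 428 and 423 CPM. Both induced libraries lay above both normal ones, with means of 532.5 ± 9.4 and 425.5 ± 4.0 CPM (SD, n = 2 each), a log2 fold change of 0.32 (SE 0.034, edgeR adjusted p = 1.08e-11). Per kilobase of own exon Pcdhgc3 made up 80.2% and 80.2% of the gamma members' own reads in induced cells and 79.8% and 80.1% in normal cells. An antisense gene, BC037039, overlaps 1559 exon bases of Pcdhgc3, and its row had 5239 and 4190 counts in induced and 3984 and 4214 counts in normal cells. The library kit kept strand, but it is not stated whether counting used it, so reads of these 2 genes cannot be told apart here.

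Pcdhgb2 came next, with 971 and 809 own reads in induced and 800 and 841 in normal cells. Its means were 58.2 ± 0.80 CPM in induced and 49.6 ± 1.2 CPM in normal cells (SD, n = 2 each), and the libraries of the 2 groups did not overlap (log2 fold change 0.23, SE 0.060, edgeR adjusted p = 0.00141). Pcdhga4 had 75 and 56 own reads in induced and 48 and 45 in normal cells, a log2 fold change of 0.61 (SE 0.20, edgeR adjusted p = 0.0141). Part of its exons is shared with Pcdhgb1, so its excess can include reads of that neighbour. Pcdhgb4 had 78 and 69 own reads in induced and 57 and 49 in normal cells, a log2 fold change of 0.58 (SE 0.19, edgeR adjusted p = 0.0122). These gamma A and gamma B members encode isoforms that differ in their extracellular repeats. The values of Pcdhga4 and Pcdhgb4 rest on few reads on top of the many shared ones, and leaving out single libraries was not tried in this fit.

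Other gamma members with at least 40 own reads in every library did not pass. Pcdhga1, the most upstream gamma gene, had 241 and 190 own reads in induced and 203 and 233 in normal cells (log2 fold change 0.10, SE 0.11). Pcdhga3 had 92 and 74 against 98 and 81, and its groups overlapped (log2 fold change 0.00, SE 0.17). Pcdhgc5, a C-type member, had 74 and 52 in induced and 52 and 68 in normal cells (log2 fold change 0.18, SE 0.19). Counting every own row of the alpha and gamma clusters that passed the filter, 9 of 21 were called higher and 0 lower by edgeR in this fit, in which 18.5% of all tested rows were called higher. Of those 21, 12 had fewer than 40 own reads in some library, and 5 of the 12 were called higher. A row could pass the filter through the group in which it was higher, so 9 of 21 cannot be read against that share. Pcdhga2 had 43 and 19 own reads in induced and 15 and 15 in normal cells, and Pcdhgb7 had 42 and 34 against 23 and 22. Pcdhgb8 had 24 and 17 in induced and 7 and 15 in normal cells, Pcdhga5 had 15 and 9 against 1 and 0, and Pcdhga12 had 21 and 10 against 0 and 8. The induced libraries lay above the normal ones in each of these 5. The antisense gene Gm26672 overlaps exons of Pcdhgb7 and Pcdhga12, so reads of that gene in their rows cannot be told apart. The other 7, Pcdha8, Pcdhgb1, Pcdhga6, Pcdhga8, Pcdhga9, Pcdhgb6 and Pcdhgc4, were not called, and own reads of Pcdhga7, Pcdhgb5, Pcdhga10 and Pcdhga11 did not pass the filter. Pcdhga10 was the lowest or nearly the lowest gamma row, at 416 and 411 CPM in induced and 316 and 317 CPM in normal cells as deposited. Its own reads, 0 and 0 in induced and 1 and 1 in normal cells, follow from taking the lowest row as the shared reads. The change of that row is by this definition that of the shared reads, and a change of Pcdhga10 itself could not be measured.

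**Figure D2:**
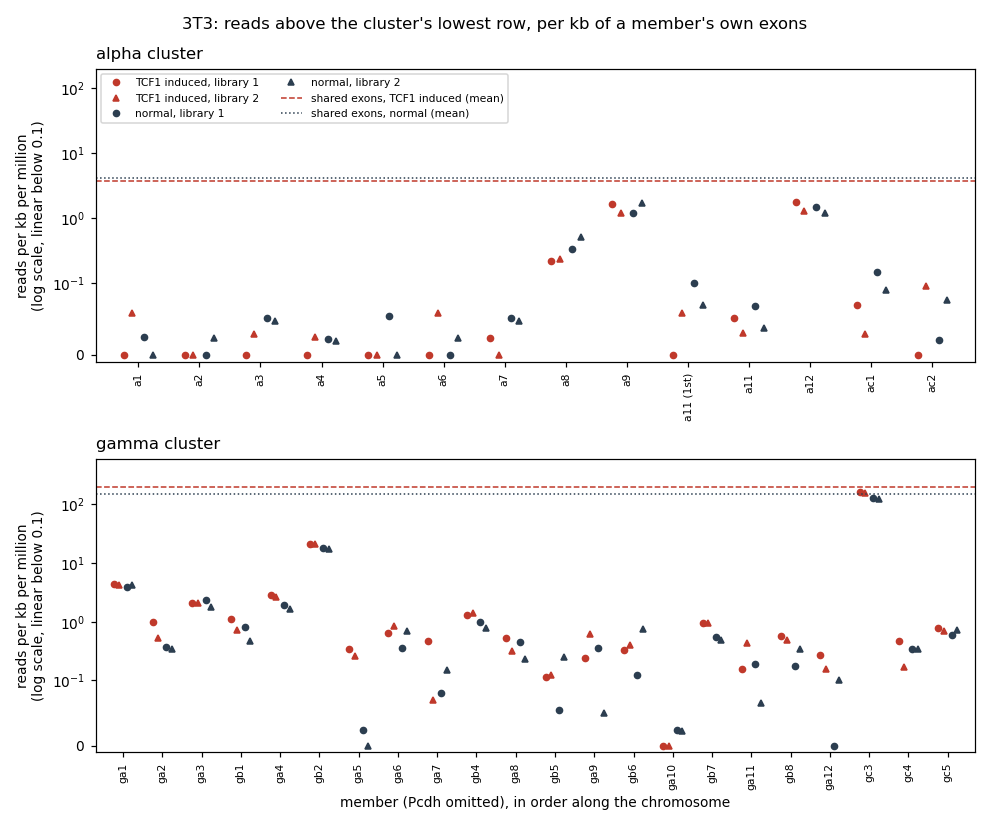
Reads of each alpha and gamma member above the lowest row of its cluster, as CPM per kilobase of that member's own exons (vertical axis, log scale, linear below 0.1), in the 4 3T3 libraries, by gene order. The dashed and dotted lines are the shared exons in induced and normal cells. Pcdhgc3 alone approaches the line of the gamma cluster, and Pcdha9 and Pcdha12 stand out in the alpha cluster.

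The alpha cluster was weakly expressed in 3T3 and no member passed the test. Its 14 rows had log2 fold changes of -0.20 to -0.06, with SEs of 0.10 to 0.11 and edgeR adjusted p-values of 0.175 to 0.705, and 0 of 14 had an unadjusted p under 0.05 in either direction. The shared alpha exons stood at 11.3 and 10.2 CPM in induced cells, against 12.1 and 11.8 CPM in normal cells, so that both induced libraries were lower (log2 fold change -0.15, SE 0.11, edgeR adjusted p = 0.351). Divided by length they carried 3.96 and 3.56 CPM per kilobase in induced and 4.23 and 4.13 CPM per kilobase in normal cells.

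Within the alpha cluster 2 variable exons held most of the own reads. Pcdha12 had 74 and 43 own reads in induced and 58 and 51 in normal cells (log2 fold change 0.21, SE 0.21, edgeR adjusted p = 0.467), and the antisense gene Gm10545 overlaps part of its exon. Pcdha9 had 68 and 41 own reads in induced and 47 and 74 in normal cells (log2 fold change -0.04, SE 0.21, edgeR adjusted p = 0.919). The groups overlapped for both genes. Pcdha8 followed with 9 and 8 own reads in induced and 13 and 22 in normal cells, and the other 11 members (Pcdha1 to Pcdha7, 2 loci named Pcdha11, and the C-type members Pcdhac1 and Pcdhac2) had 6 or fewer own reads in every library. GENCODE labels both of those neighbouring loci Pcdha11, while RefSeq places Pcdha10 at one of them.

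Beta genes have exons of their own, so each row measures 1 gene, apart from overlaps. Pcdhb21 and Pcdhb22 overlap by 455 bases, and the antisense gene Gm37446 overlaps 1927 exon bases of Pcdhb12. In 3T3, 21 of 22 were tested and 3 were called higher, with 0 lower, beside shares over all tested genes of 18.5% higher and 18.3% lower. Pcdhb7 had 295 and 287 counts in induced and 201 and 238 in normal cells, or 17.4 and 20.7 CPM against 12.6 and 13.7 CPM. Its groups did not overlap, with means of 19.0 ± 2.3 and 13.1 ± 0.78 CPM (SD, n = 2 each), a log2 fold change of 0.52 (SE 0.10, edgeR adjusted p = 5.01e-05). Pcdhb5 had 329 and 278 counts in induced and 249 and 254 in normal cells, or 19.7 ± 0.47 against 15.1 ± 0.70 CPM (SD, n = 2 each), a log2 fold change of 0.39 (SE 0.095, edgeR adjusted p = 0.00102). Pcdhb22, the last gene of the cluster, had 346 and 274 counts in induced and 255 and 291 in normal cells, or 20.1 ± 0.44 against 16.3 ± 0.54 CPM (SD, n = 2 each), a log2 fold change of 0.30 (SE 0.093, edgeR adjusted p = 0.00945). In CPM both induced libraries were above both normal ones for these 2 genes as well. The call on Pcdhb22 was lost with DESeq2 (adjusted p = 0.139) and without the first normal library (adjusted p = 0.117 in edgeR).

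Of the 18 other beta genes tested in 3T3, 11 had positive and 7 negative log2 fold changes, between -0.45 and 0.29, with edgeR adjusted p-values of 0.0601 to 0.801. The nearest to the threshold was Pcdhb9, with 12.3 and 13.6 CPM in induced and 10.7 and 10.7 CPM in normal cells (log2 fold change 0.26). Pcdhb16 was the most abundant beta gene per kilobase, at 6.78 ± 0.027 CPM per kilobase in induced and 6.04 ± 0.20 in normal cells (SD, n = 2 each), and its log2 fold change was 0.17 (SE 0.071, edgeR adjusted p = 0.0649). In normal cells Pcdhb17 came next, at 5.07 ± 0.45 CPM per kilobase in induced and 5.16 ± 0.22 in normal cells, with overlapping groups. Towards the middle of the cluster Pcdhb10, Pcdhb11, Pcdhb12 and Pcdhb13 stood below 0.45 CPM per kilobase in both groups, as did Pcdhb4. Pcdhb14 had 20.6 ± 1.8 CPM in induced and 18.3 ± 0.46 CPM in normal cells, Pcdhb21 had 17.1 ± 1.6 against 15.1 ± 0.61 CPM, and Pcdhb15 had 14.6 ± 0.39 against 13.2 ± 1.3 CPM. Pcdhb18 had 14.7 ± 0.65 CPM in induced and 14.3 ± 0.71 CPM in normal cells, Pcdhb20 had 9.43 ± 0.90 against 9.94 ± 0.078 CPM, and Pcdhb2 had 6.49 ± 0.099 against 6.97 ± 0.30 CPM. Pcdhb6 had 5.58 ± 0.061 CPM in induced and 4.78 ± 0.47 CPM in normal cells, and Pcdhb8 had 3.65 ± 0.34 against 3.34 ± 0.56 CPM (SD, n = 2 each). None of these 8 genes was called. Pcdhb3 (log2 fold change -0.42), Pcdhb13 (-0.45) and Pcdhb19 (-0.24) had the most negative values, none past the threshold. Pcdhb1, the first gene, had 1 and 0 counts in induced and 0 and 0 in normal cells and was not tested.

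**Figure D3:**
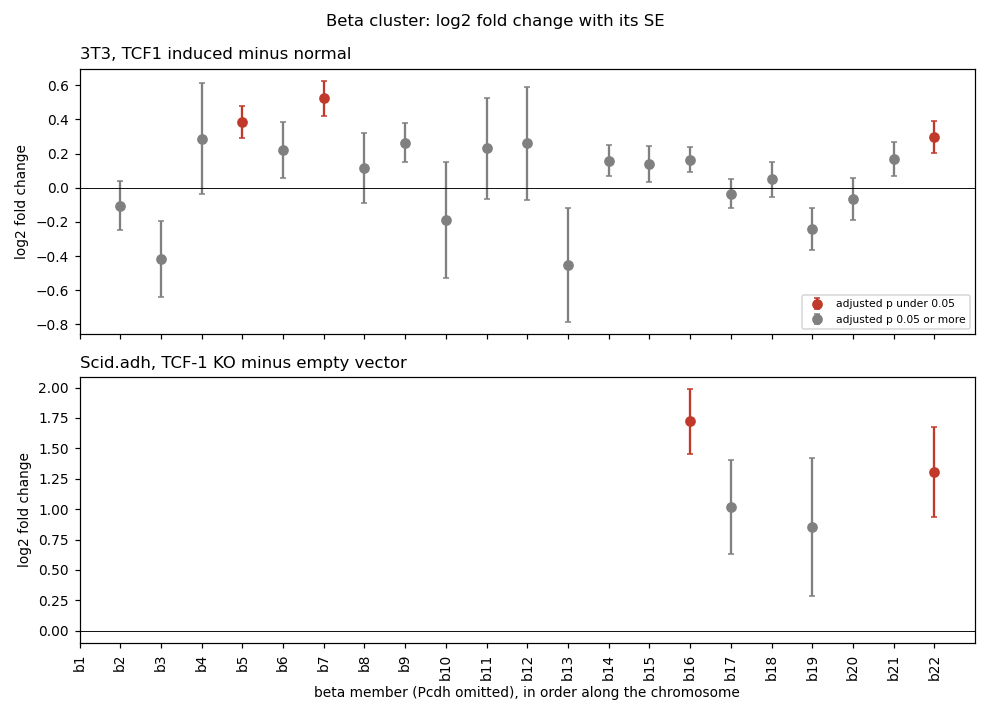
Log2 fold changes of the beta genes that passed the filter on low counts, with bars of 1 SE, by gene order, in 3T3 (upper panel, induced minus normal) and Scid.adh (lower panel, knockout minus empty vector). Red points passed an edgeR adjusted p under 0.05. The vertical scales differ between the panels, and genes without a point were not tested in that line.

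Summed over all rows as deposited, the gamma cluster stood at 9794 and 9680 CPM in induced and 7469 and 7478 CPM in normal 3T3 cells, with shared reads counted repeatedly. The alpha cluster summed to 167 and 149 CPM against 177 and 174 CPM. The log2 ratios of the sums, given without a test, were 0.38 for gamma, 0.15 for beta and -0.15 for alpha.

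In Scid.adh the clustered protocadherins were nearly silent except at the end of the beta cluster, and there the knockout libraries were higher for 2 genes. Only 4 of the 57 members passed the filter on low counts, all of them beta genes. A gene could pass that filter through the group in which it was higher. By edgeR 2 of the 4 were called higher, where 15.6% of all tested genes were called higher, and none was called lower, where 15.9% of all tested genes were. No member had an unadjusted p under 0.05 for a lower level, and DESeq2 also called 0 lower.

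Pcdhb16 had 66 and 74 counts in knockout cells and 26 and 23 counts with the empty vector. The groups did not overlap, at 8.40 ± 0.54 CPM in knockout and 2.54 ± 0.12 CPM in empty-vector cells (SD, n = 2 each). The change was 3.30-fold (log2 fold change 1.72, SE 0.27, edgeR adjusted p = 0.00051). Pcdhb22 had 25 and 33 counts in knockout cells against 16 and 11 with the empty vector, or 3.48 ± 0.62 against 1.39 ± 0.31 CPM (log2 fold change 1.31, SE 0.37, edgeR adjusted p = 0.0173). Its call was lost with DESeq2 (adjusted p = 0.115), without the second empty-vector library (1.09 on the log2 scale) and without the second knockout library (1.12).

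Pcdhb17 had 25 and 54 counts in knockout cells and 27 and 18 with the empty vector (log2 fold change 1.02, SE 0.39, edgeR adjusted p = 0.0603). Pcdhb19 had 6 and 27 counts in knockout and 10 and 11 in empty-vector cells (log2 fold change 0.85, SE 0.57, edgeR adjusted p = 0.278), and its value was -0.57 without the second knockout library. For both genes the second knockout library stood above the other 3, and for Pcdhb19 the first knockout library was the lowest of all 4. Pcdhb17 passed without the first empty-vector library (edgeR adjusted p = 0.0375) and without the first knockout library (0.000782). Without the first knockout library 4 members were called higher, without the second 1 was, and without the first or the second empty-vector library 3 and 1 were.

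Below the filter, Pcdhb18 had 8 and 10 counts in knockout and 7 and 10 in empty-vector cells. Pcdhb20 had 2 and 14 counts in knockout and 9 and 8 in empty-vector cells, again with the second knockout library apart. Pcdhb21 had 4 and 3 counts in knockout and 6 and 5 in empty-vector cells. The ratios of depth-scaled counts over both libraries were 1.23 for Pcdhb18 (95% interval 0.597 to 2.53), 1.09 for Pcdhb20 (0.516 to 2.30) and 0.737 for Pcdhb21 (0.242 to 2.08), so that no difference was detectable at this depth. Such intervals cover counting error only.

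The beta reads of Scid.adh came largely from the 7 genes from Pcdhb16 to Pcdhb22, a boundary chosen after the values were seen. These genes held 89.5% (Wilson 95% interval 83.6 to 93.4) and 92.3% (88.1 to 95.1) of beta counts in the knockout libraries and 90.2% (83.3 to 94.4) and 90.5% (83.0 to 94.9) with the empty vector. In 3T3 they held 54.4% and 52.7% in induced and 56.2% and 55.9% in normal cells. Counts from Pcdhb1 to Pcdhb15 came to 16 and 18 in knockout and 11 and 9 in empty-vector cells. Pcdhb5 and Pcdhb7, both called higher in induced 3T3 cells, had 3 or fewer counts in every Scid.adh library.

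**Figure D4:**
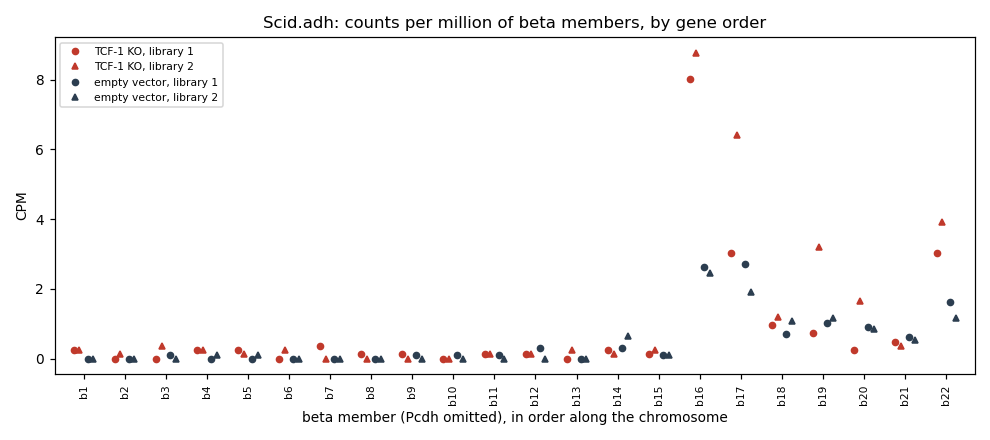
CPM of the 22 beta genes in the 4 Scid.adh libraries (vertical axis, linear), by gene order. Red points are the knockout and dark points the empty-vector libraries. Values from Pcdhb1 to Pcdhb15 lie near 0, and Pcdhb16 separates the groups at 8.40 and 2.54 CPM on average. The second knockout library is the highest for Pcdhb16, Pcdhb17, Pcdhb18, Pcdhb19, Pcdhb20 and Pcdhb22.

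Own reads of the alpha members in Scid.adh summed to 16 and 13 counts in the knockout libraries and 2 and 2 with the empty vector. Pcdha3 supplied most of them, with 8 and 7 counts in knockout and 0 and 1 in empty-vector cells. The ratio of depth-scaled counts for Pcdha3 was 17.4, with a 95% counting interval of 2.67 to 732, and the gene did not pass the filter on low counts. Ratios were taken for untested members with at least 10 counts in a group. Pcdha3 reached that through its knockout counts alone, so its interval is no test of a difference. Pcdhac2 had 4 and 2 counts in knockout and 0 and 1 in empty-vector cells, and Pcdha2, Pcdha4 and Pcdha7 were at 0 in all 4 libraries. A count of 0 allows up to 3 counts, or 0.365 and 0.356 CPM in the knockout and 0.302 and 0.320 CPM in the empty-vector libraries.

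Gamma members had 0 to 6 own counts each in Scid.adh, summing to 39 and 27 in knockout and 20 and 26 in empty-vector cells. Pcdhgc3, which dominated the cluster in 3T3, had 0 and 0 counts in knockout and 0 and 1 in empty-vector cells. Pcdhga10 had 2 and 4 counts in knockout and 0 and 0 in empty-vector cells, and Pcdhga12 had 4 and 3 against 1 and 1. The antisense gene Gm26672 overlaps 2613 exon bases of Pcdhga10 and 422 of Pcdhga12, and use of strand in counting is not stated. The log2 ratio of the summed gamma level was 0.73, and 0.34 with members that have antisense overlap left out. No gamma or alpha member passed the filter, so none was tested.

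Some other low-count genes were also called higher in these knockout libraries. Of the fibroblast markers 5 of 8 were tested in Scid.adh, with 3 called higher and 2 lower, beside 15.6% and 15.9% of all tested genes. Higher were Col1a1, Col1a2 and Pdgfra, at 1.74, 2.34 and 1.80 CPM in knockout and 0.362, 0.670 and 0.365 CPM in empty-vector cells. Lower were Pdgfrb and Thy1. The list summed to 409 and 376 CPM in knockout and 676 and 716 CPM in empty-vector cells, nearly all of it Thy1 and Pdgfrb, with Vim at 0.301 CPM in knockout and 0.157 CPM in empty-vector cells. Of 2 neuron markers tested 1 was called higher, Rbfox3, at 2.59 CPM in knockout and 0.777 CPM in empty-vector cells. Gap43 was at 0 in all 4 libraries. The 1 myeloid marker tested was called higher. Of 2 epithelial markers tested 0 were called in either direction, with a median log2 fold change of -0.37. A gene could pass the filter through the group in which it was higher, so these counts cannot be read against the shares over all genes. Reads outside genes took 22.3% and 25.8% of reads in the knockout and 21.3% and 21.6% in the empty-vector libraries. The part of these in the levels of the protocadherins was not tested.

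The effect of TCF-1 gain in 3T3 and of its loss in Scid.adh was compared in a joint edgeR fit of all 8 libraries. Of 56 members tested, 5 had a gain effect below the loss effect and none the reverse, where 16.1% of all tested genes were called in that direction. Most of the 56 passed the joint filter through their 3T3 counts, since only 4 members passed it in Scid.adh alone. For every alpha and gamma member the fit also set rows with shared reads against rows of own reads. The count of 5 is therefore no measure of how many members differed. Among the beta genes, the difference on the log2 scale was -1.55 for Pcdhb16 (SE 0.24, adjusted p = 6.98e-06), -1.05 for Pcdhb17 (SE 0.33, adjusted p = 0.0164) and -1.01 for Pcdhb22 (SE 0.35, adjusted p = 0.0268). In the fits of each line alone, Pcdhb16 had a log2 fold change of 0.17 on gain and 1.72 on loss, and Pcdhb22 one of 0.30 on gain and 1.31 on loss. In the joint fit the gain effect of Pcdhb22 was 0.28 and not called (edgeR adjusted p = 0.0606). The call on the difference for Pcdhb22 was lost with DESeq2 (adjusted p = 0.0774) and without 4 of the libraries taken singly, and that on Pcdhb17 with limma-voom (-0.97 on the log2 scale, adjusted p = 0.0617), without the second knockout library (-0.39), without the second empty-vector library (-0.80) and without the first induced library (-0.94). Without the second knockout or the second empty-vector library 2 members were called. The other 2, Pcdha3 and Pcdhga10, set rows with shared reads in 3T3 against own reads in Scid.adh, and so compare different quantities.

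Nonclustered protocadherins are related adhesion genes that stand singly in the genome. Of 10 tested in 3T3, 1 rose and 6 fell in induced cells, beside 18.5% and 18.3% of all tested genes. Pcdh1, which lies near the clusters on chromosome 18, rose to 214 ± 9.2 CPM in induced cells, against 61.7 ± 1.7 CPM in normal cells (log2 fold change 1.80, edgeR adjusted p = 1.04e-31). Pcdh18 fell to 65.6 ± 3.7 against 116.1 ± 2.9 CPM, and Pcdh19 to 154.9 ± 0.47 against 227.4 ± 2.4 CPM; Pcdh7, Pcdh9, Pcdh15 and Pcdh17 also fell, and 3 falls were called without the first normal library. In Scid.adh 4 of 5 tested rose in knockout cells (Pcdh7, Pcdh8, Pcdh15 and Pcdh19) and 0 fell, beside 15.6% and 15.9% of all tested genes. The rises had log2 fold changes of 1.62 to 2.29 at mean levels of 1.32 to 3.37 CPM in knockout and 0.264 to 1.08 CPM in empty-vector cells. A gene could pass the filter through the group in which it was higher, so 4 of 5 cannot be read against those shares. With a filter on a mean of at least 1 CPM, 2 rises were called. DESeq2 called 0 of these 4 and edgeR called 2 rises with the first or the second empty-vector library left out. The list's median log2 fold change was -0.50 in 3T3 and 1.67 in Scid.adh.

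Of 25 genes linked to protocadherin promoter choice and its chromatin, 2 rose and 6 fell in induced 3T3 cells, and 1 rose and 5 fell in knockout Scid.adh cells. Over all tested genes 18.5% rose and 18.3% fell in 3T3 and 15.6% rose and 15.9% fell in Scid.adh. In 3T3 Dnmt3a, a DNA methyltransferase, and Ehmt2 rose, and the repressor Rest, the demethylase Tet1 and the genes of cohesin and its loader, Rad21, Stag2 and Nipbl, were among those that fell, by at most 0.37 on the log2 scale. In Scid.adh Stag2 rose, and Dnmt1, Tet3, Wiz, Smc1a and Rad21 fell, by at most 0.38. Ctcf, which binds clustered protocadherin promoters, stood at 88.4 ± 2.0 CPM in induced and 84.7 ± 1.0 CPM in normal 3T3 cells, and at 289 ± 16 CPM in knockout and 311.7 ± 2.0 CPM in empty-vector Scid.adh cells, neither past the threshold. Without the first and without the second normal library 3 and 2 of the 25 fell in 3T3, and without the second knockout library 12 fell in Scid.adh. The 2 rises in 3T3 became 0 without the second normal library, and the rise in Scid.adh became 0 with DESeq2, without a filter, under the replicate block and with the first or the second empty-vector library left out. It became 4 rises with upper-quartile factors, 5 without the first knockout library, and 2 without the second or in the joint fit. The median log2 fold change of the list was -0.05 in 3T3 and -0.07 in Scid.adh, beside 0.00 in both lines over all tested genes.

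Among 30 genes whose products bind, cut or act downstream of clustered protocadherins, 27 were tested in 3T3, with 10 higher and 5 lower, beside 18.5% and 18.3% of all tested genes. The kinase Ptk2b (Pyk2), which the alpha and gamma tails bind, had 73 and 55 counts in induced and 25 and 25 in normal cells (log2 fold change 1.46), and Psen2, a catalytic subunit of gamma-secretase, rose by 0.81. Ptk2, Wasf2, Cyfip1, Rhoa, Rac1, Adam10 and Snx33 were also among the 10 and rose by 0.26 or less, and Prkca (-0.37), Abi1, Abi2, Ctnnb1 and Pdcd6ip fell. In Scid.adh Ptk2 and Marcks rose, and Fyn, Rhoa, Rac1, Psen2 and Aph1a fell, of 28 tested, beside 15.6% and 15.9% of all tested genes. Without the second knockout library 10 fell there, without the second empty-vector library 2 fell, and without the first empty-vector library 0 rose. The median log2 fold change was 0.06 in 3T3 and -0.07 in Scid.adh.

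Genes flanking or lying between the clusters, within 500 kb, were called higher in 14 and lower in 3 of 40 tests in induced 3T3 cells, beside 18.5% and 18.3% of all tested genes. Of the 14, BC037039, Gm42416, Gm38182, Gm37013 and Gm37388 overlap exons of members, and their log2 fold changes of 0.31 to 0.41 lay near those of the gamma rows. Pcdh1 and Cd14 had the largest rises, of 1.80 and 1.24, and Hbegf the largest fall, of -1.12, while Taf7, which lies between the beta and gamma clusters, fell by 0.17. In knockout Scid.adh cells 0 of 22 were called higher and 5 lower (Hars, Dele1, Diaph1, Slc35a4 and Rnf14, by 0.18 to 0.44), beside 15.6% and 15.9% of all tested genes, and 2 falls were called with the first or the second empty-vector library left out. The median log2 fold change was 0.16 in 3T3 and -0.17 in Scid.adh.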

How the data were processed

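The values are gene counts deposited by the authors, with 1 table per library, from RNA reads aligned to GRCm38. Per the labels' protocols, total RNA went into stranded, paired-end libraries made with a low-input kit. STAR 2.5.0a and HTSeq 0.6.1 are named in the submitters' processing notes. For the 3T3 tables the counting program, and for all tables the annotation release and use of strand, are not stated in the sources. Summary rows of the Scid.adh tables, with reads outside genes (21.3% to 25.8%) and ambiguous reads (2.20% to 2.44%), were left out. Symbols and exons came from GENCODE M21, in which 105 gene identifiers of the 3T3 and 42 of the Scid.adh tables were not found.

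All genes of a line were filtered with filterByExpr, scaled by TMM and tested with edgeR 4.0.16 (robust quasi-likelihood F-test, R 4.3.3) with Benjamini-Hochberg adjustment over all tested genes, 18185 in 3T3 and 11941 in Scid.adh. Effects of gain and loss were compared by an interaction term over the 15854 genes that passed the filter in a joint fit of 8 libraries. CPM are relative to TMM-scaled totals, which were recomputed where shared and own reads were fitted apart. SDs are over 2 libraries. The alternatives were DESeq2 1.42.0, limma-voom (limma 3.58.1), other size factors and filters, a replicate block and each library left out. The steps were tested on simulated data. For the split of shared and own reads a gamma member without own reads was planted. That test therefore could not check whether the lowest row holds shared reads only.

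Members that passed the filter, or that had at least 10 counts over the libraries of a group, are named, with Tcf7 and the called genes of each list, except that some list genes are not reported here. The members and lists were chosen with earlier results of these data known. Sequences of these genes are not shown.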

Additional observations from a re-analysis of the deposited data

Results flagged for a closer look

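For 5 members the effect of TCF-1 gain in 3T3 minus the effect of its loss in Scid.adh, on the log2 scale, passed a test of the difference itself in the joint edgeR fit. The difference was -1.55 for Pcdhb16, -1.05 for Pcdhb17 and -1.01 for Pcdhb22. In Pcdhb16 and Pcdhb22 both effects were positive. The gain effect of Pcdhb16 was not called in either fit, and that of Pcdhb22 was called within 3T3 but not in the joint fit. In Pcdhb17 neither effect was called within its own line, while its loss effect was called in the joint fit (edgeR adjusted p = 0.0135). The difference was -4.03 for Pcdha3 and -4.76 for Pcdhga10, where the 3T3 rows hold reads of shared exons and the Scid.adh rows hold own reads only. Those fitted values also depend on the prior count, since Pcdha3 had 1 count and Pcdhga10 had 0 counts over both empty-vector libraries.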

How the results depend on the processing

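With shared and own reads fitted apart, 13 distinct features were called higher in induced 3T3 cells in place of 25, because the shared gamma reads then count once. The count was 23 to 25 under other tools, size factors and filters and in the joint fit, and 24 to 26 with 1 library left out. In Scid.adh the count of 2 members called higher became 1 with DESeq2 and 5 in the joint fit of 8 libraries, and 1 to 4 with 1 library left out. Members with a different effect between the lines numbered 3 with DESeq2 and 2 to 6 with 1 library left out. No member was called lower under any setting in either line. Over all genes, DESeq2 called 1977 higher and 2035 lower in 3T3, against 3361 and 3332 with edgeR, and 880 and 1080 in Scid.adh, against 1861 and 1899. Upper-quartile factors raised the share of higher calls in Scid.adh to 66.9%, against 49.5% with TMM.

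The replicate numbers of the labels showed little sign of pairing the samples (correlation of deviations 0.0445 in 3T3 and -0.0116 in Scid.adh). With 2 libraries per group this check cannot settle whether the samples were paired. With them as a replicate block, 27 members were called higher in 3T3 and 3 in Scid.adh.

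The summed gamma level had a log2 ratio of 0.40 with total counts in place of TMM. The median row level per kilobase in normal 3T3 cells was 2.25 for alpha and 67.0 for gamma. The same rows divided by only the exon bases held by 1 gene alone gave 4.81 and 121. Those values still hold the shared reads, so they overstate the level of own exons. Own reads over own bases gave 0.0489 and 0.393. With 1 library left out, log2 fold changes spanned 0 for Pcdha12 (-0.19 to 0.045), Pcdhb8 (-0.039 to 0.31), Pcdhb17 (-0.12 to 0.063) and Pcdhb20 (-0.17 to 0.018) in 3T3 and Pcdhb19 (-0.57 to 1.54) in Scid.adh. In Scid.adh 4 of 57 members held enough reads for a test. The cause of these shifts was not tested except where stated.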
